A study of Mus musculus with 12 samples.

Results

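A set of 9 genes whose transcripts mark eosinophils and their precursors were followed through RNA sequencing of mouse bone marrow. They were Epx, Prg2, Prg3, Ear1, Ear2, Ear6, Ccr3, Il5ra and Alox15, taken by symbol from the deposited tables, where all 9 were found among 24444 gene symbols. All 9 had enough reads to be tested in each comparison.

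Eosinophils are granulocytes that arise in the bone marrow from GATA-1-dependent progenitors under the influence of interleukin-5 (IL-5). Their granules hold a peroxidase, major basic proteins and ribonucleases, which are made while the cells mature in the marrow. Mature cells carry the eotaxin receptor CCR3, and 12/15-lipoxygenase oxygenates arachidonic acid in them.

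The libraries came from bone marrow cells of C57BL/6 mice, with 3 libraries in each of 4 groups. The groups were Hopx knockout with MN1 overexpression (MN1_KO, 16 weeks of age), Hopx wild type with MN1 overexpression (MN1_WT, 16 weeks), Hopx knockout described as old (aged_KO, 18 weeks) and Hopx wild type described as old (aged_WT, 18 weeks). Hopx encodes a small homeodomain-only protein and MN1 a transcriptional co-regulator that drives leukaemia in mice when overexpressed. The labels gave neither the kind of Hopx allele, nor how MN1 was delivered, nor whether the cells of a library were sorted or pooled, and they did not say that each library was a separate animal, so p-values measure the spread between these libraries. Replicate numbers are those of the labels.

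Each library held 16544407 to 28409046 expected counts. Hopx, the targeted gene, was at 3.5, 3.51 and 2.92 CPM (expected counts scaled to a common library total) in MN1_KO, against 27.9, 14.1 and 25.6 CPM in MN1_WT, and at 0, 0 and 0.121 CPM in aged_KO, against 14.2, 33.6 and 15.3 CPM in aged_WT. Mn1 measured 47.3, 46.3 and 22.1 CPM in MN1_KO (replicates 5, 7, 8) and 0.395, 36.4 and 0.16 CPM in MN1_WT (replicates 2, 3, 4), against 0.0704 to 0.181 CPM in aged_KO and 0.456 to 1.18 CPM in aged_WT. The libraries labelled MN1_WT replicates 2 and 4 therefore had less Mn1 than any aged_WT library, which goes against their label as far as mouse Mn1 reads show it. Replicate 2 was above the aged_KO libraries and replicate 4 within their range. The summed Y-linked genes Ddx3y, Eif2s3y, Kdm5d and Uty were at 14.1, 21.6 and 8.05 CPM in MN1_KO and 241, 81.8 and 229 CPM in MN1_WT, against at most 0.152 CPM in the aged libraries, so the MN1 groups also differed in male RNA, whose part in the results was not tested. Xist, expressed in female cells, was at 18.1, 4001 and 2.4 CPM in MN1_WT and 4937, 3919 and 585 CPM in MN1_KO. The libraries labelled MN1_WT replicates 2 and 4, low in Mn1, were thus also the lowest in Xist. Summed neutrophil markers reached 25987 to 119917 CPM, as a marrow label implies. MN1 status, labelled age, deposited table and the presence of male RNA cannot be told apart between the experiments. Each experiment has its own table and age, and Y-linked genes were above 0.152 CPM in the MN1 libraries only.

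The ribonuclease genes need their sequences beside their values, because near-identical copies share reads. Ear1, Ear2 and Ear6 encode eosinophil-associated ribonucleases of a family that expanded in rodents. The first 120 coding bases of each are given below from the mm10 genome (chr14:43819290-43819409 on the minus strand for Ear1, chr14:44102887-44103006 and chr14:51853998-51854117 on the plus strand for Ear2 and Ear6), with capitals where a base differs from Ear1.
Ear1: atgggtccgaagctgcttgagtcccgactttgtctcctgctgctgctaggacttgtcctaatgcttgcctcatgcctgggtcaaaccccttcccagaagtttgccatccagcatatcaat
Ear2: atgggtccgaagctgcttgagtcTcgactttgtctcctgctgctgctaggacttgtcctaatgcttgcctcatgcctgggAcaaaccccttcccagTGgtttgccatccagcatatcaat
Ear6: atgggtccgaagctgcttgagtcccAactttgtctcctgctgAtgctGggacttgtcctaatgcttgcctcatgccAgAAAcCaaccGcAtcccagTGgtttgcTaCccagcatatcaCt
Ear2 differed from Ear1 at 4 of these bases and Ear6 at 15. Over the whole coding sequence, Ear1 and Ear2 were 95.1% identical with an identical run of 96 bases, Ear1 and Ear6 were 87.3% identical, and Ear2 and Ear6 were 87.6% identical. The expected counts of Ear1 and of Ear2 were not whole numbers in any of the 12 libraries, whereas their sum was whole within 0.001 in 11 libraries, as was Ear6 alone in 11. The reads shared by Ear1 and Ear2 had thus been divided between them by estimation, so their separate values are uncertain. Their sum does not depend on that division, but whether it held reads of other loci was not tested. The other 6 Ear genes in the tables had at most 2 counts together in any library.

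Promoters of Prg3, Ccr3 and Il5ra are shown because they held a GATA match, the letters AGATAA on either strand, or AGATAG on either strand, or likewise TGATAA, or else TGATAG, within 250 bases before the RefSeq start. Capitals mark the match. The windows are GRCm38.p6 chr2:84987965-84988214 (plus strand), chr9:124021721-124021970 (plus strand) and chr6:106749038-106749287 (minus strand), in that order.
Prg3: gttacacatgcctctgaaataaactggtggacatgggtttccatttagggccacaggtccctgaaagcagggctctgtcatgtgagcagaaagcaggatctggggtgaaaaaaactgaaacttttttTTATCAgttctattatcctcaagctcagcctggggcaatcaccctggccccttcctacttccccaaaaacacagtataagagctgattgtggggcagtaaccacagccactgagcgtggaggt
Ccr3: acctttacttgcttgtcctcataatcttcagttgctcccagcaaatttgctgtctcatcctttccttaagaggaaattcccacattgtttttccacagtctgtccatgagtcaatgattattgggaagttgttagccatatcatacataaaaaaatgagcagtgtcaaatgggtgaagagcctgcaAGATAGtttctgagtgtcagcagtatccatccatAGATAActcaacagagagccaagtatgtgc
Il5ra: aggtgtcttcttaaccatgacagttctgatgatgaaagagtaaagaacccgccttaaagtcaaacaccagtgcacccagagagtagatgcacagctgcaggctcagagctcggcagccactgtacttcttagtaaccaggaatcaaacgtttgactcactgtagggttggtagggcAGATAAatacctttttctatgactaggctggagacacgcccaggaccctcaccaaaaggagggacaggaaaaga
The match began 123 bases before the start in Prg3, 64 and 30 bases before it in Ccr3, and 74 bases before it in Il5ra. Promoters were on hand for 7 members, and 3 of the 7 held such a match, against 26.5% of 32851 mouse promoter windows of that length. The windows of Epx, Ear1, Ear2 and Ear6 held none of these letters. GAGGAA, the core of PU.1 sites, was present on either strand in Ccr3 alone among the 7, against 23.3% of all windows. The upstream windows of Ear1 and Ear2 were 97.6% identical, with 6 differing columns in the alignment, and that of Ear6 was 78.2% identical to Ear1.

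In the aged mice, transcripts of the granule proteins, the ribonucleases and the IL-5 receptor alpha chain were 2.67- to 4.58-fold lower in Hopx-knockout marrow. Of the 9 genes, 7 fell in aged_KO against aged_WT at an adjusted p under 0.05 in edgeR's quasi-likelihood test, namely Epx, Prg2, Prg3, Ear1, Ear2, Ear6 and Il5ra. None rose. Of all 12771 genes tested, 31.4% passed in either direction and 15.8% were lower. The median log2 fold change was -1.60 over the members and -0.02 over all genes tested. In bulk marrow, fewer eosinophil-lineage cells and less RNA of these genes per cell cannot be told apart.

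Epx encodes eosinophil peroxidase, the enzyme of the granule matrix that makes hypobromous acid, and lies at chr11:87864000-87875536 on the minus strand. It had 66.2, 130 and 101 CPM in aged_KO, against 347, 334 and 274 CPM in aged_WT. Every knockout library was below every wild-type library, and the highest knockout value was under the lowest wild-type value by more than the range of either group. The log2 fold change was -1.49 ± 0.27 (SE), a 2.8-fold lower level, with an edgeR adjusted p of 0.00635. Epx had the smallest adjusted p of the 9 genes.

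Prg2 encodes major basic protein 1, which forms the crystalline core of the granule, and was the most abundant member. It lies at chr2:84980461-84983632 on the plus strand. It had 381, 888 and 704 CPM in aged_KO, against 2628, 1796 and 1613 CPM in aged_WT. The groups did not overlap, and the fall was 2.67-fold, with a log2 fold change of -1.42 ± 0.36 (SE) and an edgeR adjusted p of 0.0231. Prg3, the gene of the paralogue major basic protein 2, begins 4.6 kb downstream of Prg2 at chr2:84988215-84993886 on the same strand. Its level was 13.8, 30.2 and 25.1 CPM in aged_KO, against 98.8, 76.9 and 64.5 CPM in aged_WT. The groups did not overlap, and the log2 fold change was -1.60 ± 0.34 (SE; edgeR adjusted p = 0.0154). The coding sequences of Prg2 and Prg3 were 64.1% identical, with no identical run over 23 bases, and Prg2 counts were whole in all 12 libraries.

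The ribonucleases had the lowest fold changes of the 9 genes. Ear1, annotated at chr14:43818765-43875517 on the minus strand in a span that also holds the pseudogenes Ear-ps12 and Ear-ps9, had 60.4, 148 and 91.5 CPM in aged_KO, against 883, 396 and 297 CPM in aged_WT. Ear2, at chr14:44102654-44103534 on the plus strand, had 67.6, 136 and 84.8 CPM in aged_KO, against 649, 327 and 257 CPM in aged_WT. Ear6, at chr14:51853699-51854643 on the plus strand, had 33.5, 95.9 and 54.4 CPM in aged_KO, against 430, 223 and 177 CPM in aged_WT. In each of these genes aged_WT replicate 1 was the highest library and aged_KO replicate 3 the lowest of these 6, and the groups did not overlap. The log2 fold changes were -2.20 ± 0.58 for Ear1, -1.90 ± 0.47 for Ear2 and -1.97 ± 0.56 for Ear6 (SE), with edgeR adjusted p-values of 0.0372, 0.0292 and 0.0461. Summing the Ear genes to a single row removes the division of reads among them. That row had a log2 fold change of -2.04 ± 0.52 (SE, edgeR adjusted p = 0.0308).

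Il5ra encodes the IL-5-specific alpha chain of the receptor, at chr6:106710357-106749037 on the minus strand. It was the least abundant member in aged marrow, with 2.03, 4.75 and 3.35 CPM in aged_KO, against 15.4, 7.53 and 8.74 CPM in aged_WT. The groups did not overlap, and the log2 fold change was -1.42 ± 0.39 (SE; edgeR adjusted p = 0.0276). Ccr3, the eotaxin receptor at chr9:124021972-124031689 on the plus strand, had 4.28, 17.2 and 4.71 CPM in aged_KO, against 34, 21.6 and 20.2 CPM in aged_WT. Its aged_KO replicate 9 came close to the wild-type libraries, and the log2 fold change of -1.28 ± 0.63 (SE) did not pass the test (edgeR adjusted p = 0.181). Alox15, the 12/15-lipoxygenase gene at chr11:70344152-70352031 on the minus strand, had 12.8, 66.6 and 23.7 CPM in aged_KO, against 230, 98.5 and 90.5 CPM in aged_WT. Here too aged_KO replicate 9 was high, and the log2 fold change was -1.79 ± 0.78 (SE; edgeR adjusted p = 0.143).

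In plain CPM all 9 members were lower in each aged_KO library than in any aged_WT library, against 50.9% of all genes tested that did not overlap, 38.4% lower and 12.5% higher. Library scaling matters for that background, because the median log2 ratio over all genes was -0.19 with library totals alone and -0.02 under TMM (trimmed mean of M-values) scaling. With TMM-scaled CPM the background was 25% lower and 23.4% higher, and 8 members were lower without overlap, the exception being Ccr3. The fold changes above are on the TMM scale.

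The number of called members depended on single libraries, while the direction did not. It was 1 without aged_KO replicate 10 (Epx), where edgeR called 4599 of all 13081 genes tested. Without aged_KO replicate 3 it was 3 (Epx, Prg2, Prg3), with 2780 of 13065 genes called. It was 9 without aged_KO replicate 9, with 2947 of 13040 genes. Without aged_WT replicate 1 it was 4 (Epx, Prg3, Ear1, Ear2), with 3384 of 12998 genes. It was 2 without aged_WT replicate 6 (Epx, Il5ra), with 2560 of 12890 genes. When all 12 libraries shared an estimate of the spread it was 0, with 818 of 13937 genes. Every member estimate was below 0 in each of the 16 settings run, one of which replaced Ear1, Ear2 and Ear6 by their sum. With 8 members free of overlap on the TMM scale, leaving out a library could hardly turn a sign, so this is no separate support.

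**Figure D1:**
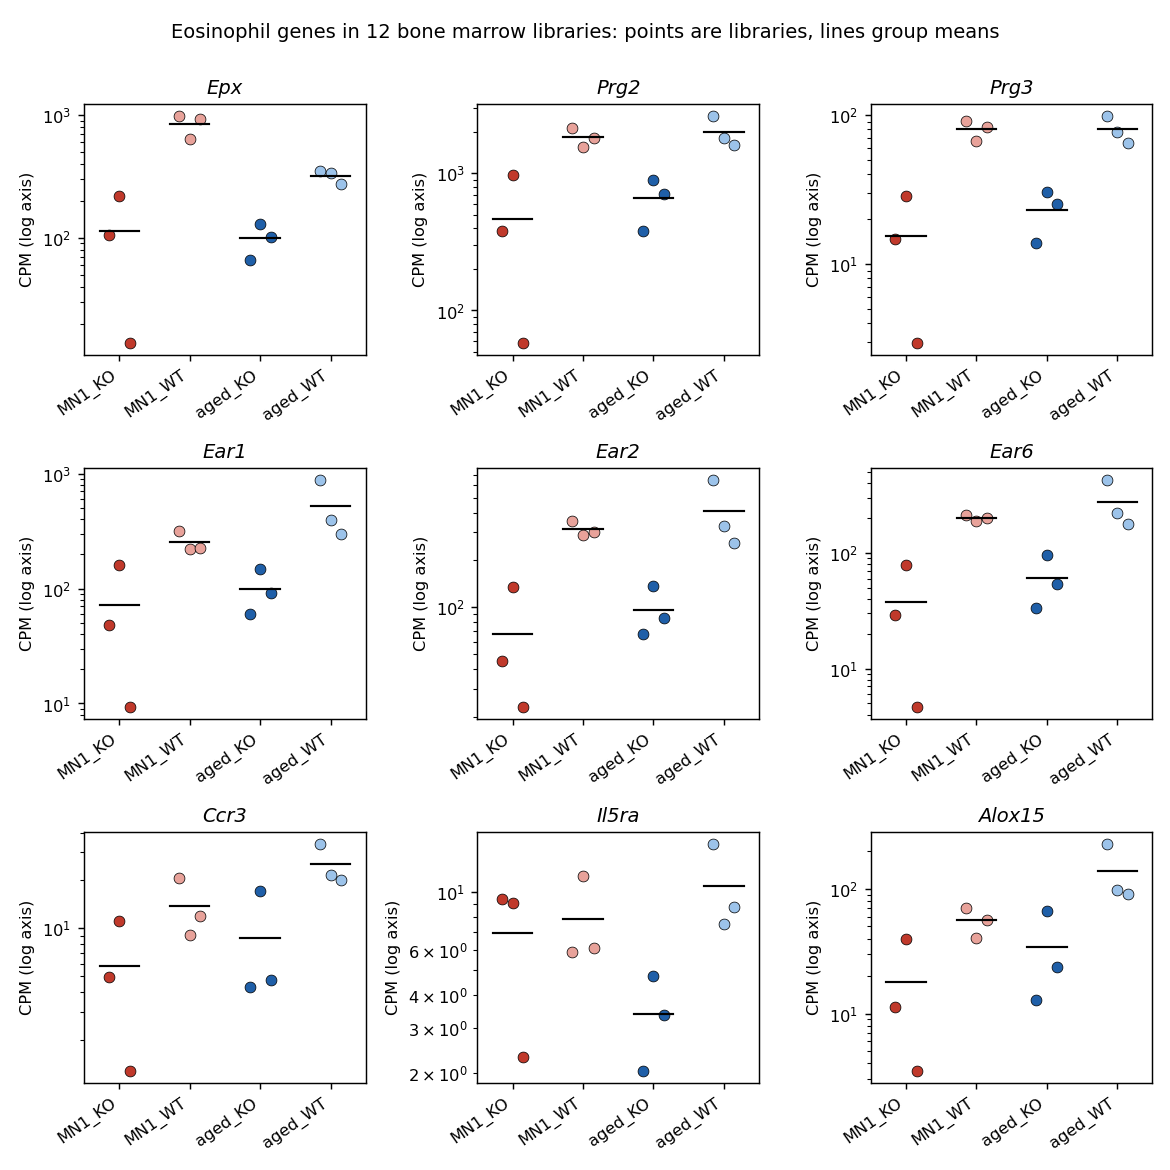
CPM (log axis) of the 9 eosinophil genes in each library, by group; points are libraries and lines are group means. In every panel the 3 aged_KO points lie below the 3 aged_WT points, and MN1_KO replicate 8, at 13.8 CPM for Epx and 57.5 CPM for Prg2, is the lowest point in all panels but Il5ra.

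In the MN1 experiment, granule protein transcripts were again lower in each Hopx-knockout library than in any library labelled MN1_WT. The knockout libraries lay far apart from each other, and no gene passed the test. The libraries labelled MN1_WT replicates 2 and 4 had less Mn1 than any aged_WT library, and the MN1 groups differed in Y-linked RNA. Hopx genotype, Mn1 level and male RNA therefore cannot be fully told apart in this comparison. The MN1_KO libraries also kept Hopx reads, at 2.92 to 3.51 CPM, against at most 0.121 CPM in aged_KO. In MN1_KO against MN1_WT, edgeR called 0 of the 9 members and 0 of 13525 genes (0%) at an adjusted p under 0.05. Hopx, the targeted gene, did not pass either, with a log2 fold change of -2.84 ± 0.38 (SE, edgeR adjusted p = 0.129). Not passing this test therefore does not show that a gene was unchanged. At an unadjusted p under 0.05, 5 members were lower (Epx, Prg2, Prg3, Ear2 and Ear6), against 5.8% of all genes that were lower and 10% in either direction. DESeq2 called 4 members lower (Epx, Prg3, Ear2, Ear6) and 565 genes in all, limma-trend called 0 members and 6 genes, and edgeR with all 12 libraries in the fit called 2 members (Epx, Prg3) and 464 genes. The median log2 fold change was -2.07 over the members and 0.03 over all genes tested.

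Epx had 105, 221 and 13.8 CPM in MN1_KO replicates 5, 7 and 8, against 985, 632 and 930 CPM in the libraries labelled MN1_WT. The 3 knockout values lay far apart, and the highest was below the lowest MN1_WT value. The log2 fold change was -3.02 ± 0.88 (SE; edgeR adjusted p = 0.317). Prg2 had 378, 965 and 57.5 CPM in MN1_KO, against 2138, 1547 and 1800 CPM in MN1_WT, for a log2 fold change of -2.07 ± 0.86 (SE; edgeR adjusted p = 0.499). Prg3 had 14.6, 28.7 and 2.92 CPM in MN1_KO, against 91.5, 67.1 and 83.6 CPM in MN1_WT, for a log2 fold change of -2.49 ± 0.71 (SE; edgeR adjusted p = 0.306). In all 3 granule genes MN1_KO replicate 7 was the highest knockout library and replicate 8 the lowest.

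The ribonucleases had the same order of libraries. Ear1 had 48, 159 and 9.24 CPM in MN1_KO, against 314, 220 and 226 CPM in MN1_WT. Ear2 had 45.2, 134 and 22.9 CPM in MN1_KO, against 353, 288 and 301 CPM in MN1_WT. Ear6 had 29.1, 78.5 and 4.61 CPM in MN1_KO, against 213, 190 and 201 CPM in MN1_WT. None overlapped between the groups, with log2 fold changes of -1.90 ± 0.88, -2.29 ± 0.62 and -2.52 ± 0.86 (SE) and edgeR adjusted p-values of 0.549, 0.284 and 0.391. In MN1_KO replicate 8 Ear1 took 28.7% of the reads divided between Ear1 and Ear2, against 42.9% to 57.6% in the other 11 libraries.

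The receptors overlapped between the MN1 groups. Ccr3 had 4.94, 11.2 and 1.26 CPM in MN1_KO, against 20.6, 9.09 and 12 CPM in MN1_WT (log2 fold change -1.37 ± 0.75, SE; edgeR adjusted p = 0.636). Il5ra had 9.42, 9.13 and 2.31 CPM in MN1_KO, against 5.89, 11.6 and 6.09 CPM in MN1_WT. Its log2 fold change was -0.23 ± 0.52 (SE; edgeR adjusted p = 0.919), the value nearest to 0 among the members. Alox15 had 11.3, 39.4 and 3.44 CPM in MN1_KO, against 70.8, 40.6 and 56.1 CPM in MN1_WT (log2 fold change -1.72 ± 0.80, SE; edgeR adjusted p = 0.552). In plain CPM 7 members, all but Ccr3 and Il5ra, were lower without overlap, against 8.33% of all genes lower, 6.73% higher and 15.1% in either direction. Under TMM scaling 6 were, Alox15 being the other exception, against 7.36% lower and 7.93% higher.

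The library labelled MN1_WT replicate 3 was the single one of its group with Mn1 reads above every aged library, and its members summed to 3004 CPM. The sum was 645, 1646 and 118 CPM in MN1_KO replicates 5, 7 and 8, and 4192 and 3615 CPM in the libraries labelled MN1_WT replicates 2 and 4. With replicates 2 and 4 of MN1_WT left out, an alternative added after the data were seen, the Epx log2 fold change was -2.39 ± 1.16 (SE) and edgeR called 0 of 14172 genes. MN1_WT then held 1 library, assumed to vary like the 3 MN1_KO libraries, which alone gave the spread. Without MN1_WT replicate 3, edgeR called 896 genes and still 0 members.

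**Figure D2:**
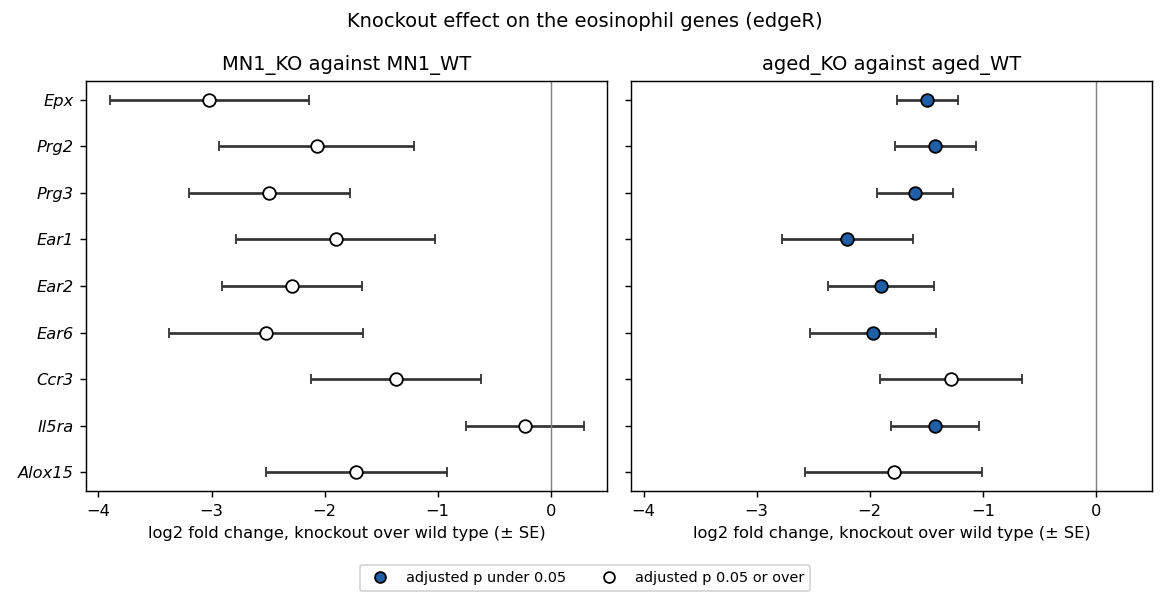
Log2 fold change of Hopx knockout over wild type (x axis; bars are ± SE) for each member in the MN1 (left) and the aged experiment (right), from edgeR; filled points passed an adjusted p of 0.05. The 7 filled points are in the aged panel, where Ccr3 and Alox15 are open, and all MN1 points are open, from -3.02 for Epx to -0.23 for Il5ra.

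Whether the knockout effect differed between the experiments was tested as the MN1 effect minus the aged effect over all 12 libraries. No member passed in edgeR (463 genes, 3.32% of 13937, did), none had an unadjusted p under 0.05 (22.2% of genes did), and DESeq2 and limma-trend called no member either. The difference was -1.53 ± 0.94 for Epx (SE; edgeR adjusted p = 0.357) and 1.21 ± 0.71 for Il5ra (SE; edgeR adjusted p = 0.336), the pair with the smallest adjusted p-values. The estimates for Ear1, Ccr3 and Alox15 were 0.30 ± 1.08, -0.05 ± 0.99 and 0.09 ± 1.12 (SE), so sizeable differences in either direction lie within their error. Hopx itself differed, by 6.12 ± 0.96 (SE, edgeR adjusted p = 0.0134), a call lost without aged_KO replicate 9. The part of the Hopx reads left in MN1_KO in these differences was not tested.

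Between the experiments at a given genotype, no member passed the edgeR test. In MN1_WT against aged_WT, 0 of 9 members passed, against 3.58% of 13937 genes, and none had an unadjusted p under 0.05, against 24.4%. DESeq2 and limma-trend called none. Epx was higher in each library labelled MN1_WT than in any aged_WT library (849 ± 190 against 318 ± 38.8 CPM; SD, n = 3 each), with a log2 fold change of 1.28 ± 0.67 (SE; edgeR adjusted p = 0.262). It passed when only these 6 libraries were fitted (edgeR adjusted p = 0.0461), where 704 of 13210 genes passed. Alox15 was lower without overlap, at 55.8 ± 15.1 CPM in MN1_WT against 140 ± 78.2 CPM in aged_WT (SD, n = 3 each; log2 fold change -1.46 ± 0.80, SE; edgeR adjusted p = 0.28). In plain CPM 40.6% of all genes did not overlap between these groups (27.2% higher, 13.4% lower), so 2 of 9 members is no more than the background. Under TMM scaling Ccr3 was lower without overlap as well, against 18.5% of genes higher and 19.4% lower. In MN1_KO against aged_KO, edgeR, DESeq2 and limma-trend each called 0 members, against 37.9% of 13937 genes in edgeR, and no member had an unadjusted p under 0.05 in edgeR, against 49.9%. Each member overlapped between these groups in plain CPM, against 54.6% of genes that did not (42.1% higher, 12.5% lower), a split of 27.7% higher and 22.4% lower under TMM scaling. Without MN1_KO replicate 7, edgeR called 6 members lower in MN1_KO (Prg2, Prg3, Ear1, Ear2, Ear6 and Alox15). In that fit 3234 of 14184 genes were called, 1530 of them lower.

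The proportions between granule transcripts were not the same in all groups. Epx reads amounted to 27.7%, 22.8% and 24.1% of Prg2 reads in MN1_KO and 46.1%, 40.9% and 51.7% in MN1_WT, against 17.4%, 14.7% and 14.4% in aged_KO and 13.2%, 18.6% and 17% in aged_WT. The ratio was above every aged library in each MN1 library, it was lower in each MN1_KO library than in any MN1_WT library, and the aged groups overlapped. With 3 libraries a group an exact two-sided permutation test cannot go below 0.1, and since the ratio was chosen after its values were seen no test is given. Prg3 per Prg2 stayed within a narrower range, at 2.97% to 5.07% in MN1_KO and 4.28% to 4.65% in MN1_WT, against 3.41% to 3.64% in aged_KO and 3.76% to 4.28% in aged_WT. Ear6 per Prg2 was 7.71% to 8.13% in MN1_KO, where Prg2 itself ranged between 57.5 and 965 CPM, and 9.97% to 12.3% in MN1_WT. Ear6 per Prg2 was 7.73% to 10.8% in aged_KO and 11% to 16.4% in aged_WT. It was lower in knockout than in wild-type libraries without overlap in both experiments, but this ratio too was chosen after its values were seen. Ear1 per Prg2 was lower without overlap in aged_KO (13% to 16.7%, against 18.4% to 33.6% in aged_WT). In the MN1 experiment it overlapped (12.7% to 16.4% in MN1_KO, against 12.6% to 14.7% in MN1_WT). Ear2 per Prg2 overlapped between the genotypes in both experiments.

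**Figure D3:**
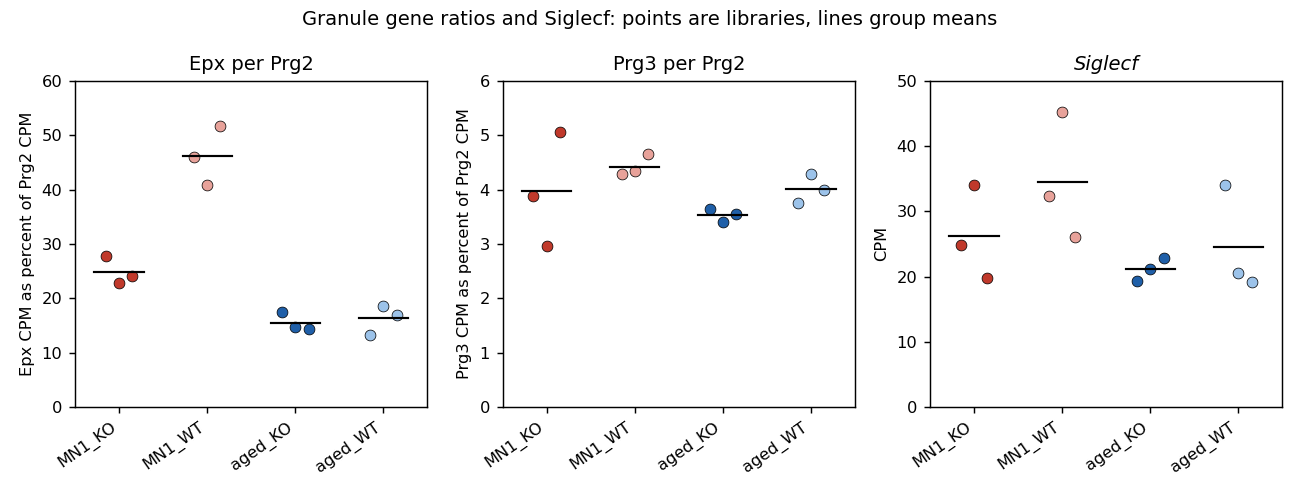
Epx and Prg3 reads as a percent of Prg2 reads, and Siglecf in CPM, by group; points are libraries, lines are group means, and all axes start at 0. Epx per Prg2 is 40.9% to 51.7% in MN1_WT, 22.8% to 27.7% in MN1_KO and 13.2% to 18.6% in the aged libraries, while Siglecf groups overlap.

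Per transcript length, as the authors' TPM values, the order in both aged groups was Prg2, Ear1, Ear2, Ear6, Epx, Prg3, Alox15, Ccr3 and Il5ra. Prg2 averaged 1246 ± 448 TPM in aged_KO and 3657 ± 947 TPM in aged_WT (SD, n = 3 each). Il5ra averaged 1.4 ± 0.525 TPM in aged_KO and 4.19 ± 1.65 TPM in aged_WT. Neighbours in that order overlapped in the aged groups for Ear1 with Ear2, Ear2 with Ear6, Epx with Prg3, and Prg3 with Alox15. In MN1_WT Ear2 stood above Ear1, and in MN1_KO Il5ra stood above Ccr3, both within their overlap. Prg2 was the 11th most abundant gene by TPM in aged_WT replicate 1 and the 1080th in MN1_KO replicate 8. The members together took 0.0118% of all counts in that MN1_KO library and 0.532% in that aged_WT library.

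By CPM, 6 members (Prg2, Ear1, Ear2, Ear6, Ccr3 and Alox15) had the order aged_WT, MN1_WT, aged_KO, MN1_KO from high to low. Within it the wild-type groups overlapped for all of these but Alox15, and the knockout groups overlapped for all of them. MN1_WT also overlapped aged_KO for Ccr3 and Alox15. Epx alone had MN1_WT above aged_WT without overlap. Over the 12 libraries, log2 levels of the member pairs without Il5ra correlated at Pearson's r of 0.77 to 0.99, and pairs with Il5ra at 0.64 to 0.71. After each group's mean was taken out, pairs without Il5ra had r of 0.84 to 1.00 and pairs with Il5ra 0.67 to 0.84. These are descriptions over libraries that share depth and cell mixture. Within MN1_KO every member was lowest in replicate 8, and the weight of that library in the values within groups was not tested.

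Other genes of the eosinophil lineage did not all follow. Siglecf, the sialic acid-binding lectin used to stain mouse eosinophils, had 19.3, 21.2 and 22.9 CPM in aged_KO, against 34, 20.6 and 19.1 CPM in aged_WT. These groups overlapped, and the log2 fold change was -0.04 ± 0.23 (SE; edgeR adjusted p = 0.917), with a sign that differed between settings. In the MN1 experiment Siglecf had 24.9, 34.1 and 19.7 CPM in MN1_KO, against 32.3, 45.3 and 26.1 CPM in MN1_WT. In MN1_KO replicate 8, where Prg2 was at 57.5 CPM, Siglecf thus stayed within the range of the aged libraries. Of the 23 genes listed as other eosinophil genes, 4 could be tested in the aged comparison and 1 fell, against 15.8% of all genes tested. That gene was Il1rl1, the receptor chain for interleukin-33, which mast cells and basophils also carry. Il1rl1 had 13, 16.7 and 8.76 CPM in aged_KO, against 30.4, 27 and 33 CPM in aged_WT (log2 fold change -1.03 ± 0.23, SE; edgeR adjusted p = 0.0105). Rnase2b and Adgre4, the remaining pair besides Siglecf, had log2 fold changes of -0.51 ± 0.50 and -0.17 ± 0.41 (SE) and did not pass.

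The beta chain that pairs with the IL-5 receptor alpha chain moved the other way in aged marrow. Csf2rb, the common beta chain that signals for IL-5, IL-3 and GM-CSF, had 691, 631 and 620 CPM in aged_KO, against 336, 312 and 243 CPM in aged_WT. The groups did not overlap, and the log2 fold change was 1.30 ± 0.15 (SE; edgeR adjusted p = 0.000772). Csf2rb2, the mouse IL-3-specific beta chain and a close paralogue whose reads could be divided with Csf2rb, had 153, 135 and 134 CPM in aged_KO, against 81.6, 77.1 and 61.2 CPM in aged_WT (log2 fold change 1.11 ± 0.13, SE; edgeR adjusted p = 0.000781). Of 13 tested genes of the IL-5 receptor complex and its signalling, 5 rose (Csf2rb, Csf2rb2, Csf2ra, Lyn and Stat3) and 1 fell, the feedback inhibitor Socs1, with a median log2 fold change of 0.27. The share of all genes that passed in either direction was 31.4%. Il5 itself was at 0 CPM in the aged libraries and at most 0.305 CPM in MN1_KO. In MN1_KO against MN1_WT none of the 13 passed in edgeR, and Csf2rb was at 452, 396 and 506 CPM in MN1_KO, against 480, 406 and 469 CPM in MN1_WT.

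**Figure D4:**
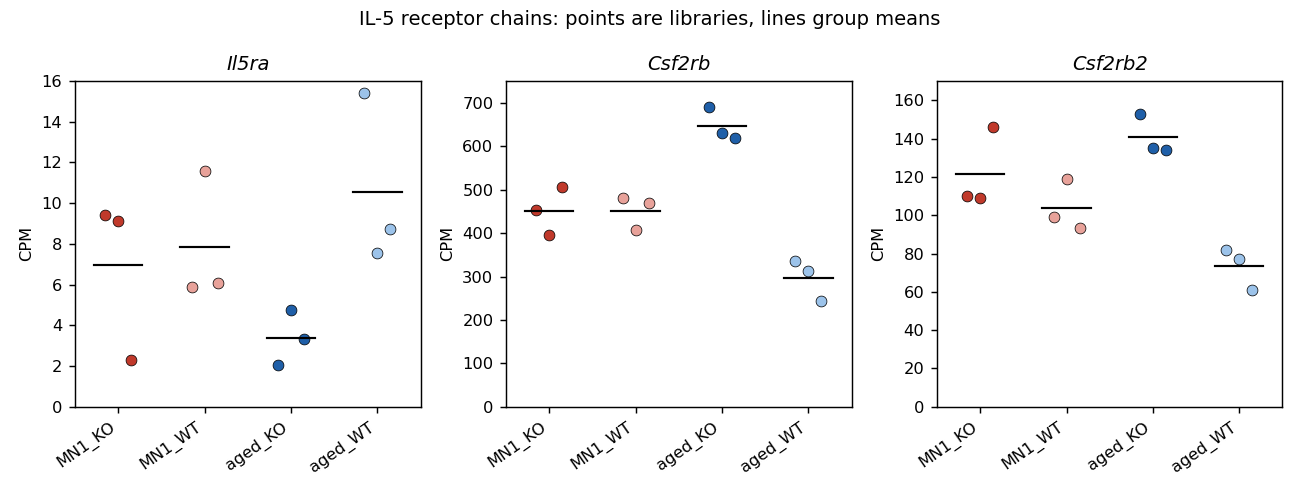
CPM of the IL-5 receptor alpha chain (Il5ra), the common beta chain (Csf2rb) and its paralogue (Csf2rb2) by group; points are libraries, lines are group means, and axes start at 0. In the aged experiment Il5ra is lower in aged_KO (2.03 to 4.75 CPM, against 7.53 to 15.4 CPM in aged_WT) while Csf2rb is higher (620 to 691 CPM, against 243 to 336 CPM).

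Among 14 transcription factors of the eosinophil lineage, 4 fell and 4 rose in aged_KO against aged_WT, with a median log2 fold change of 0.06. Over all genes tested in that comparison, 31.4% passed in either direction and 15.8% were lower. The 4 that fell were Gata1, its cofactor Zfpm1 (FOG-1), Gata2 and Irf8. Gata1, which eosinophil and erythroid development require, had 14.5, 15.3 and 13.5 CPM in aged_KO, against 32.7, 39.7 and 60.9 CPM in aged_WT (log2 fold change -1.43 ± 0.21, SE; edgeR adjusted p = 0.00218). Irf8 had a log2 fold change of -1.43 ± 0.16 and Gata2 of -1.19 ± 0.17 (SE; edgeR adjusted p = 0.000677 and 0.00152). The 4 that rose were Cebpb, Cebpe, Spi1 (PU.1) and Id1, and Cebpb, with 0.80 ± 0.09 (SE; edgeR adjusted p = 0.000781), had the smallest p of these. Erythroid cells also use Gata1 and Zfpm1, and 4 of 5 erythroid markers fell. In the MN1 experiment Gata1 did not separate the genotypes, with 64.5, 62.4 and 63.4 CPM in MN1_KO, against 34.9, 106 and 37.7 CPM in MN1_WT.

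Of the ligands of CCR3, Ccl11 and Ccl24, the mouse eotaxins, were below the level that could be tested in the aged libraries, with at most 0.0538 CPM and 0.181 CPM there. Of the 7 chemokine genes listed as eotaxins or other CCR3 ligands, 3 could be tested and 2 fell in aged_KO, against 15.8% of all genes tested. Whether each of them acts on mouse CCR3 was not tested. Ccl8 had 0.274, 0.106 and 0.363 CPM in aged_KO, against 2.75, 1.86 and 2.53 CPM in aged_WT (log2 fold change -3.16 ± 0.42, SE; edgeR adjusted p = 0.0012). Ccl5 had 13.1, 13.1 and 10.5 CPM in aged_KO, against 39, 33.2 and 67 CPM in aged_WT (log2 fold change -1.73 ± 0.26, SE; edgeR adjusted p = 0.00296). Ccl9 had a log2 fold change of -0.25 ± 0.11 (SE) and did not pass.

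Alox15 stood among lipoxygenase pathway genes that moved in both directions in aged_KO. Of 8 tested, 4 rose and 2 fell, against 31.4% of all genes that passed in either direction. Alox5, the 5-lipoxygenase of neutrophils and other leukocytes, and its activating protein gene Alox5ap rose, with log2 fold changes of 0.89 ± 0.15 and 0.94 ± 0.14 (SE; edgeR adjusted p = 0.00326 and 0.00192), as did Lta4h and Pla2g4a. Alox12, the platelet-type 12-lipoxygenase, had 2.8, 1.76 and 4.17 CPM in aged_KO, against 23.3, 19.5 and 17.8 CPM in aged_WT (log2 fold change -2.66 ± 0.27, SE; edgeR adjusted p = 0.000492), and Alox8 fell as well. Epx lies beside the haem peroxidase genes Lpo, which ends 35.7 kb away, and Mpo, 59.6 kb away. Mpo, the myeloperoxidase of neutrophils and their precursors, rose with 3751, 2436 and 5037 CPM in aged_KO, against 2130, 2528 and 2037 CPM in aged_WT, and the groups overlapped (log2 fold change 0.91 ± 0.23, SE; edgeR adjusted p = 0.0165, and not called without aged_WT replicate 7 or with all 12 libraries in the fit). Lpo was at most at 0.0549 CPM in any library.

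Markers of other marrow cells moved with Hopx genotype in the aged libraries, where 31.4% of all genes tested passed in either direction and 15.8% were lower. Neutrophil markers rose in 7 of 10 genes and summed to 100483 to 119917 CPM in aged_KO, against 77604 to 99524 CPM in aged_WT. All 6 B cell markers fell, with sums of 6.97 to 14.7 CPM in aged_KO, against 208 to 509 CPM in aged_WT. Megakaryocyte markers fell in 4 of 4 genes (40.8 to 90.6 CPM in aged_KO, against 201 to 258 CPM in aged_WT) and erythroid markers in 4 of 5 (322 to 548 CPM, against 867 to 5031 CPM). Monocyte and macrophage markers fell in 4 of 10 (1947 to 2044 CPM, against 2005 to 2885 CPM), namely Cd5l, Mrc1, Timd4 and Vcam1. Csf1r, Ccr2, Cx3cr1, Ly6c2, Adgre1 and C1qa did not pass. None of the defining markers in these lists was at 0 in every library. Their part in the result for the eosinophil genes was not tested.

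Basophils and mast cells were followed through 11 markers. In aged_KO 4 of the 8 tested fell (Fcer1a, Cd200r3, Prss34 and Gata2), against 15.8% of all genes tested, and Hdc rose. The list summed to 735 to 950 CPM in aged_KO, against 1032 to 1554 CPM in aged_WT. Cd200r3 had 2.64, 5.56 and 2.06 CPM in aged_KO, against 17.1, 12 and 9.23 CPM in aged_WT (log2 fold change -1.66 ± 0.41, SE; edgeR adjusted p = 0.0202). In the MN1 experiment the list summed to 1237 to 6435 CPM in MN1_KO and 1808 to 4541 CPM in MN1_WT, where the groups overlapped. Of its members, Cpa3, a mast cell carboxypeptidase, ranged between 324 and 3463 CPM in MN1_KO and between 161 and 2044 CPM in MN1_WT. Cd200r3 had 8.14, 2.88 and 2 CPM in MN1_KO, against 16.5, 15.6 and 18.5 CPM in MN1_WT, and Fcer1a had 26.4, 9.66 and 3.83 CPM in MN1_KO, against 74.3, 27.2 and 66.3 CPM in MN1_WT. Both were lower in MN1_KO without overlap in plain CPM, like 7 of the 9 eosinophil genes and 8.33% of all genes tested. Neither passed the test (log2 fold changes -2.06 ± 0.50 and -2.23 ± 0.72, SE; edgeR adjusted p = 0.251 and 0.369). The rest of the list overlapped between the MN1 groups and went both ways. Mean CPM in MN1_KO was higher for Ms4a2, Cpa3, Gata2, Hdc and Mcpt4 and lower for Mcpt8, Prss34, Cma1 and Tpsb2. Cpa3 was named after its values were seen. Whether basophils or mast cells contributed to the members' reads was not tested.

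The genes whose level was most like the members' over the 12 libraries were found among 11828 other genes by Pearson's r with the mean standardised log2 level of the 9. They were Alox12e (0.94), Ldhc (0.93), Perp (0.92), Axin2 (0.91), Mylk, Lgalsl and Glcci1 (0.89 each), Usp15 and Fcer1a (0.88 each) and Cd226 (0.87). Alox12e, a lipoxygenase gene, averaged 0.801 ± 0.68 CPM in MN1_KO and 2.39 ± 0.963 CPM in MN1_WT, and 1.07 ± 0.803 CPM in aged_KO and 3.75 ± 1.44 CPM in aged_WT (SD, n = 3 each). Fcer1a, the high-affinity IgE receptor alpha chain of basophils and mast cells, averaged 13.3 ± 11.7 CPM in MN1_KO and 56 ± 25.2 CPM in MN1_WT, and 15 ± 7.12 CPM in aged_KO and 50 ± 14.8 CPM in aged_WT. After group means were taken out, the 10 most alike were Ppm1a, Itih5, Fli1, Pnpla8, Tmod3, Rspry1, Ppp3ca, Perp, Dach1 and Lysmd3, with r of 0.89 to 0.93. Perp was the gene on both lists, at r of 0.92 over the libraries and 0.89 within groups. Within MN1_KO each of these 10 genes was lowest in replicate 8, like the members. The members summed to 118 CPM there, against 645 and 1646 CPM in replicates 5 and 7. How far that library alone sets the likeness within groups was not tested.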

How the data were processed

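Bone marrow RNA was sequenced from stranded poly(A) libraries. Per the submitters' processing notes the tools named were RSEM 1.2.28 and Bowtie2 2.3.4.3 on mm10; filters and annotation are not given in the sources used here. The authors deposited expected counts, TPM and FPKM per gene symbol; FPKM was not used. CPM is the expected count over the library's total, without TMM. For tests, expected counts were rounded, filtered with filterByExpr and fitted with edgeR 4.0.16 (TMM, robust quasi-likelihood, Benjamini-Hochberg over all genes, 0.05). Knockout comparisons used the 6 libraries of their own table; the other 3 comparisons used all 12. DESeq2 1.42.0 and limma 3.58.1 (R 4.3.3) were alternatives, and the procedure was checked on simulated data. Named genes were all members, Hopx, Mn1, up to 3 per list by p in the aged comparison and the 10 of most similar level; others named were chosen after their values were seen. Members and lists were chosen with earlier results of these data known. Loci and coding sequence came from GENCODE M21, promoters from RefSeq (GRCm38.p6). For edgeR, the SE was derived as the absolute log2 fold change over the square root of the test's F statistic. Intervals cover counting and library spread only.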

Additional observations from a re-analysis of the deposited data

Results flagged for a closer look

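The knockout effect on Csf2rb, the common beta chain of the IL-5, IL-3 and GM-CSF receptors, differed between the experiments: MN1 minus aged effect -1.33 ± 0.28 on the log2 scale (SE; edgeR adjusted p = 0.0352). It was -0.03 ± 0.24 in MN1_KO against MN1_WT and 1.30 ± 0.15 in aged_KO against aged_WT. The effect on Stat3, a transcription factor downstream of cytokine receptors, differed by -1.03 ± 0.22 (SE; edgeR adjusted p = 0.0359), with -0.34 ± 0.20 in MN1_KO against MN1_WT and 0.68 ± 0.12 in aged_KO against aged_WT. Stat3 had 195, 211 and 213 CPM in MN1_KO, against 255, 248 and 266 CPM in MN1_WT, and 381, 390 and 339 CPM in aged_KO, against 279, 257 and 247 CPM in aged_WT. Both differences lost the call without any of 10 of the 12 libraries, left out one at a time, while the differences stayed between -1.52 and -1.19 for Csf2rb and between -1.15 and -0.95 for Stat3 with a library left out, with edgeR adjusted p-values up to 0.0995 for Csf2rb and 0.11 for Stat3. No eosinophil gene of the 9 was flagged, and groups of 3 libraries are too small for the search for outlying libraries.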

How the results depend on the processing

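No paired analysis was possible because the groups compared share fewer than 2 replicate numbers. In aged_KO against aged_WT edgeR called 7 members. The count was 0 with all 12 libraries in the fit (818 of 13937 genes) and 4 with no filter on low counts (4050 of 17504 genes). It was 1 to 9 with a library left out (2402 to 4599 genes). In MN1_KO against MN1_WT it was 2 members and 464 genes with all 12 libraries, 4 and 565 with DESeq2, 0 and 6 with limma-trend, 0 and 1 with counts not rounded, and 0 members and 0 to 896 genes with a library left out. The difference of the knockout effects called 463 genes, 1671 with DESeq2, 40 without both MN1_WT libraries low in Mn1 (chosen after seeing the data, as was scaling by library totals; MN1_WT then holds 1 library, assumed to vary like the other groups) and 53 to 3337 with a library left out. MN1_WT against aged_WT called 1 member (Epx) with only its 6 libraries, and 499 genes against 1791 with DESeq2, 2465 without the libraries low in Mn1, again with 1 MN1_WT library, and 78 to 397 with a library left out. MN1_KO against aged_KO called 0 to 6 members and 2515 to 7366 genes with a library left out.

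Some log2 changes turned sign. With a library left out, the range was -0.20 to 0.29 for Siglecf and -0.61 to 0.17 for Adgre4 in the aged comparison, -0.52 to 0.16 for Il5ra in the MN1 comparison, and, in the difference of the knockout effects, -1.11 to 0.81 for Ear1, -1.40 to 0.01 for Ear2, -1.01 to 0.98 for Ccr3 and -1.26 to 1.07 for Alox15. It was -0.28 to 0.06 for Prg3 in MN1_WT against aged_WT and -1.26 to 0.27 for Epx in MN1_KO against aged_KO. With limma-trend Siglecf was 0.01, and the differences for Ear1 and Alox15 were -0.48 and -0.22. With library totals the Ccr3 difference was 0.26, Prg3 was 0.01 and Epx was 0.19 in the same comparisons, and without both MN1_WT libraries low in Mn1 the Ccr3 difference was 0.68. The causes were not tested. Of 732 alternative values for members, 662 kept their direction and side of the threshold. The lowest counts were those of Ccr3 (29 to 631) and Il5ra (37 to 286).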
